A study of Mus musculus with 4 samples.

Results

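The glucocorticoid receptor gene Nr3c1 and 9 genes known as its targets, namely Fkbp5, Tsc22d3, Pdk4, Zbtb16, Sgk1, Klf9, Klf15, Mt1 and Mt2, were followed in sorted mouse airway smooth muscle. They were chosen by gene symbol and with earlier results of these data known. Each had 1 probe set among the 23185 named probe sets of the array. All 10 also passed the filter on low values described below, which 12395 named genes passed. They are a set of textbook targets and no full list of what the receptor controls in this tissue.

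The cells came from lungs of adult mice of the genotype Acta2-hrGFP;Cspg4-DsRED and were sorted as hrGFP+DsRED-, so green through the promoter of smooth muscle actin and not red through that of Cspg4, a pericyte and vascular smooth muscle gene. VAD mice were given a vitamin A-deficient diet, below 0.1 IU of vitamin per gram, for 3 days (5 days in another passage of the protocol), and VAS mice a normal diet with 15 IU per gram. BMS mice were given, for 3 days, a powdered vitamin A-sufficient diet with a pan-retinoic acid receptor antagonist named BMS at 5 mcg per gram, and CTR mice the same powdered diet for 3 days with corn oil vehicle. Material of 3 mice went into a single pool per condition and onto 1 array, so the series has 4 arrays and no replicate within a group. No spread between mice is known for any difference below, so "higher" and "lower" refer to the pools that were hybridised. Neither the hour at which lungs were taken nor a corticosterone level is given in the sources used here.

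The glucocorticoid receptor is a nuclear receptor that waits in the cytoplasm in a complex with heat shock protein chaperones. Corticosterone, the main glucocorticoid of mice, or an inhaled steroid binds it, and it then moves to the nucleus and raises or lowers transcription, in many cases from enhancers far from the start site. Airway smooth muscle expresses the receptor and is one of the tissues on which inhaled steroids act in asthma. Corticosterone also varies over the day and with stress and feeding, and several of the targets respond to other signals as well, such as metals for the metallothioneins and fasting for Pdk4.

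Levels are the authors' RMA values on the log2 scale, in which 1 unit is a 2-fold difference. A gene was called higher or lower where 2 arrays stood at least 1.5-fold apart, 0.585 on the log2 scale. Such a call carries no test, and it is read against the share of all 12395 genes that reach it. On these arrays all 10 airway smooth muscle markers passed the filter, with a mean log2 level of 11.22 in VAD, 11.04 in VAS, 10.93 in BMS and 11.08 in CTR, while the 10 fibroblast markers and the 7 pericyte and vascular smooth muscle markers also passed it. In a pool of sorted cells, fewer cells of a type and less RNA per cell cannot be told apart.

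The clearest pattern among the 10 genes was in the diet experiment. Fkbp5, Pdk4 and Zbtb16 were higher in VAD than in VAS, by 1.85-fold, 1.86-fold and 1.73-fold, and none of the 10 was 1.5-fold lower. Among all genes past the filter, 1.45% were called higher and 2.11% lower in VAD than in VAS. In the antagonist experiment none was called higher in BMS than in CTR and Klf15 was called lower, by 1.64-fold, where 3.11% of all genes were called higher and 1.89% lower. At 2-fold no member was called in either experiment, where 0.234% of all genes were called higher in VAD than in VAS and 0.282% lower in BMS than in CTR. The receptor gene itself stayed within 1.24-fold in both experiments. Because the 10 genes and the threshold were chosen with earlier results known, the shares of all genes are no test of them.

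**Figure D1:**
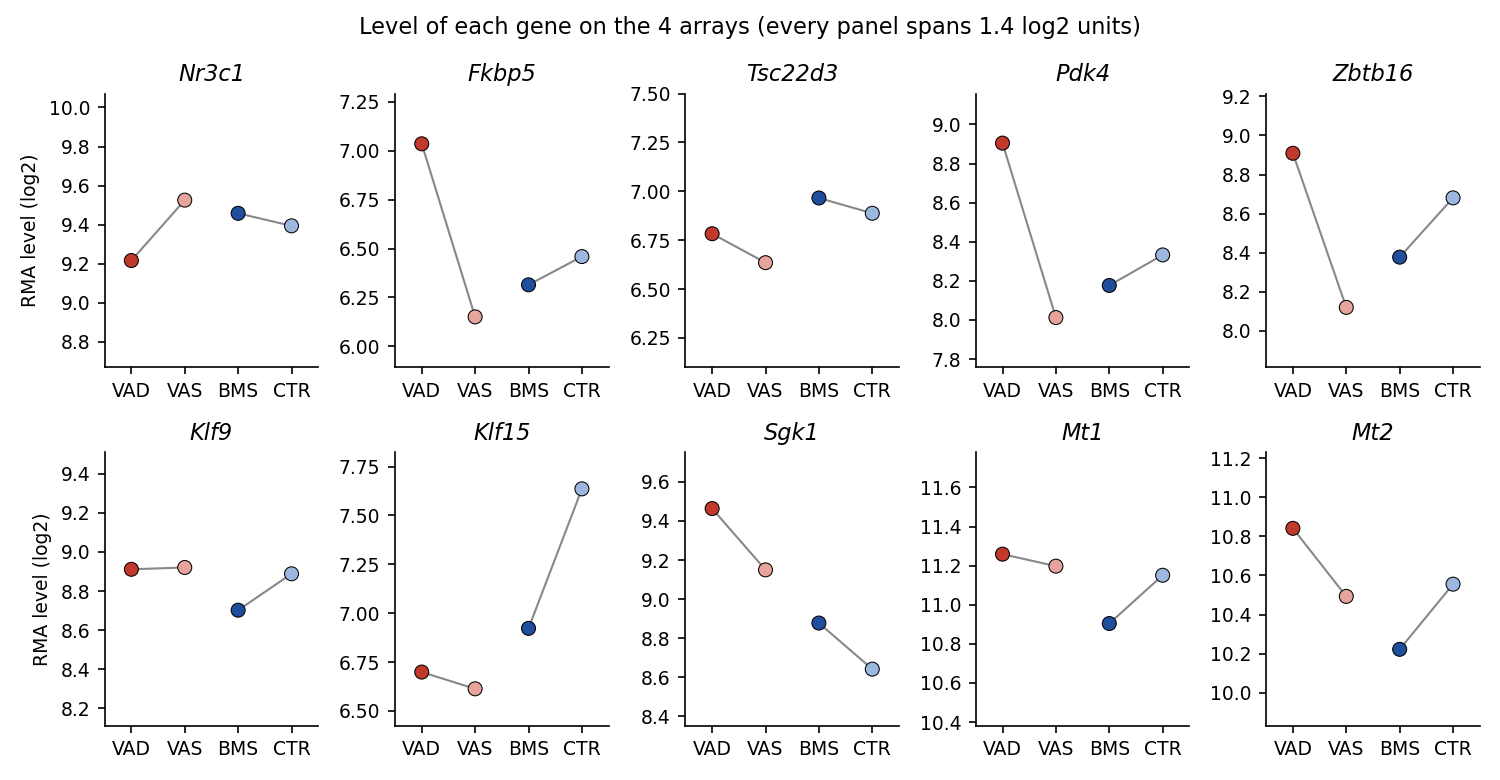
Log2 RMA level of each of the 10 genes on the VAD, VAS, BMS and CTR arrays, 1 point per array, with a line joining the arrays of an experiment. Fkbp5, Pdk4 and Zbtb16 stood highest in VAD and lowest in VAS, and Klf15 stood highest in CTR.

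Nr3c1, the receptor, had a level of 9.22 in VAD, against 9.53 in VAS, and of 9.46 in BMS, against 9.39 in CTR. VAD was thus the lowest array and VAS the highest, with 0.31 between them, and 1126 of the 12395 genes were at least as much lower in VAD than in VAS. BMS differed from CTR by 0.06.

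Fkbp5 encodes a cochaperone that lowers the hormone affinity of the receptor and is itself induced by it, which closes a short feedback loop. Its level was 7.04 in VAD, against 6.15 in VAS, and 6.31 in BMS, against 6.46 in CTR. VAD stood above the other 3 arrays, which lay within 0.31 of each other. The VAD minus VAS difference of 0.89 was reached by 43 of the 12395 genes, Fkbp5 included. BMS minus CTR was -0.14.

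Tsc22d3 encodes GILZ, a leucine zipper protein that carries part of the anti-inflammatory action of glucocorticoids. Its level was 6.78 in VAD, against 6.63 in VAS, and 6.97 in BMS, against 6.89 in CTR. All 4 arrays lay within 0.33, and the differences within the experiments were 0.15 and 0.08. Tsc22d3 therefore did not share the size of the Fkbp5 difference on these arrays, although both are standard readouts of the receptor.

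Pdk4 encodes a pyruvate dehydrogenase kinase that turns fuel use from glucose to fat and is induced by glucocorticoids and by fasting. Its level was 8.90 in VAD, against 8.01 in VAS, and 8.18 in BMS, against 8.33 in CTR. The order of the arrays was that of Fkbp5, with VAD highest and VAS lowest. The VAD minus VAS difference of 0.89 was reached by 42 genes, and BMS minus CTR was -0.16.

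Zbtb16, also called PLZF, encodes a zinc finger transcription factor that glucocorticoids and progestins induce in several cell types. Its level was 8.91 in VAD, against 8.12 in VAS, and 8.38 in BMS, against 8.68 in CTR. The order was again VAD, CTR, BMS and VAS from high to low. VAD minus VAS was 0.79, which 61 genes reached, and BMS minus CTR was -0.30.

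Klf9, a Kruppel-like transcription factor with receptor binding sites near its gene in mouse and human cells, had 8.91 in VAD, against 8.92 in VAS, and 8.70 in BMS, against 8.89 in CTR. The VAD, VAS and CTR arrays lay within 0.03 of each other and BMS stood slightly below them. Klf15, a Kruppel-like factor of amino acid and fat metabolism that glucocorticoids induce in muscle, had 6.70 in VAD, against 6.61 in VAS, and 6.92 in BMS, against 7.64 in CTR. The CTR array alone stood apart for Klf15, and the other 3 arrays lay within 0.31. BMS minus CTR was -0.71, and 125 of the 12395 genes were at least as much lower.

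Sgk1, the serum and glucocorticoid regulated kinase, which raises sodium transport and cell survival, had 9.46 in VAD, against 9.15 in VAS, and 8.88 in BMS, against 8.64 in CTR. It stood higher in both experiments, by 0.31 and 0.24, as among the members only Tsc22d3 and Sgk1 did, and both arrays of the diet experiment stood above both arrays of the antagonist experiment. Neither difference reached 1.5-fold.

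Mt1 and Mt2, neighbouring genes of the metal-binding metallothioneins, are induced by zinc, cadmium and oxidative stress as well as by glucocorticoids. Mt1 had 11.26 in VAD, against 11.20 in VAS, and 10.90 in BMS, against 11.15 in CTR. Mt2 had 10.84 in VAD, against 10.49 in VAS, and 10.22 in BMS, against 10.56 in CTR. VAD was the highest and BMS the lowest array for both genes. Mt2 differed more than Mt1, by 0.35 and 0.06 in VAD minus VAS and by -0.33 and -0.25 in BMS minus CTR, and none of these values reached 1.5-fold.

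**Figure D2:**
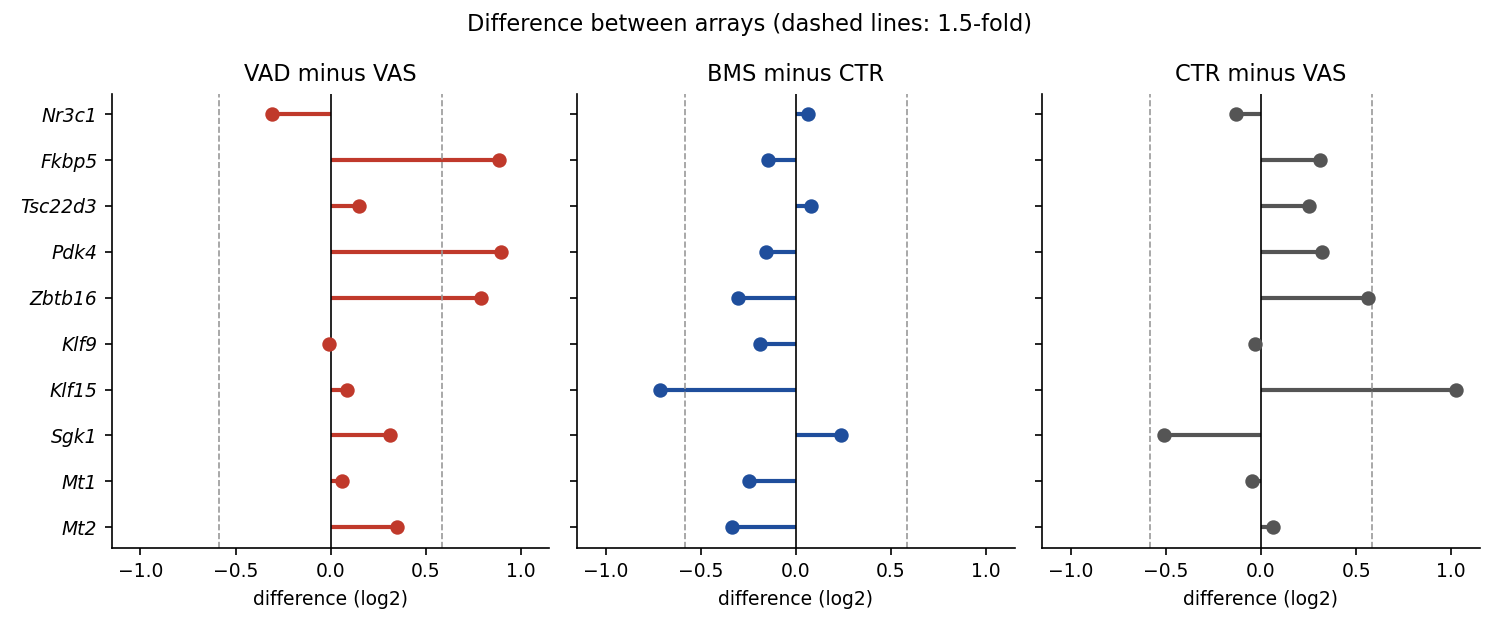
Log2 differences of the 10 genes between VAD and VAS, BMS and CTR, and CTR and VAS, with dashed lines at 1.5-fold. Fkbp5, Pdk4 and Zbtb16 lie beyond the line in VAD minus VAS, Klf15 lies below it in BMS minus CTR and above it in CTR minus VAS, and Zbtb16 lies just inside it in CTR minus VAS.

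The calls differed with the control used. Both controls were vitamin A-sufficient, but CTR differs from VAS in experiment, powdered diet, corn oil and pool of mice. Klf15 stood 2.03-fold higher in CTR than in VAS, a difference of 1.02 that 38 of all genes reached, and it was the member called here, where 2.66% of all genes were called higher and 5.87% lower. It was past 2-fold as well, as were 0.323% of all genes. Zbtb16 followed with 0.56, Pdk4 with 0.32 and Fkbp5 with 0.31, all higher in CTR, and Sgk1 was lower by 1.42-fold, with a difference of -0.51.

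Set against CTR in place of VAS, VAD stood 0.58 higher for Fkbp5 and 0.57 higher for Pdk4, both just under 1.5-fold, and 0.23 higher for Zbtb16. Sgk1 was then called higher, with 0.82, and Klf15 lower, with -0.94, where 4.29% of all genes were called higher and 1.92% lower. Set against VAS in place of CTR, BMS stood 0.31 higher for Klf15, so its direction turned, and no member was called, where 3.21% of all genes were called higher and 5.41% lower. Differences that share an array are not independent of each other, so these values are given side by side only.

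Over the 10 genes, the median of VAD minus VAS was 0.23, with 8 of 10 above 0. The median over all genes past the filter was 0.01 and 51.4% of them were above 0. The median of BMS minus CTR was -0.17, with 3 of 10 above 0, against a median of 0.01 and 51.4% above 0 over all genes. For CTR minus VAS the median was 0.16, with 6 of 10 above 0, against 0.00 and 50.4%. VAD was the highest of the 4 arrays for 6 of the 10 genes, as it was for 19.4% of all genes, and VAS was the lowest for 5, as it was for 30.5%. For 6 of the 10, VAD stood above VAS while BMS stood below CTR, a pattern that 25.5% of all genes showed. The members respond to shared signals and are not independent of each other, so these counts describe the arrays and carry no test.

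**Figure D3:**
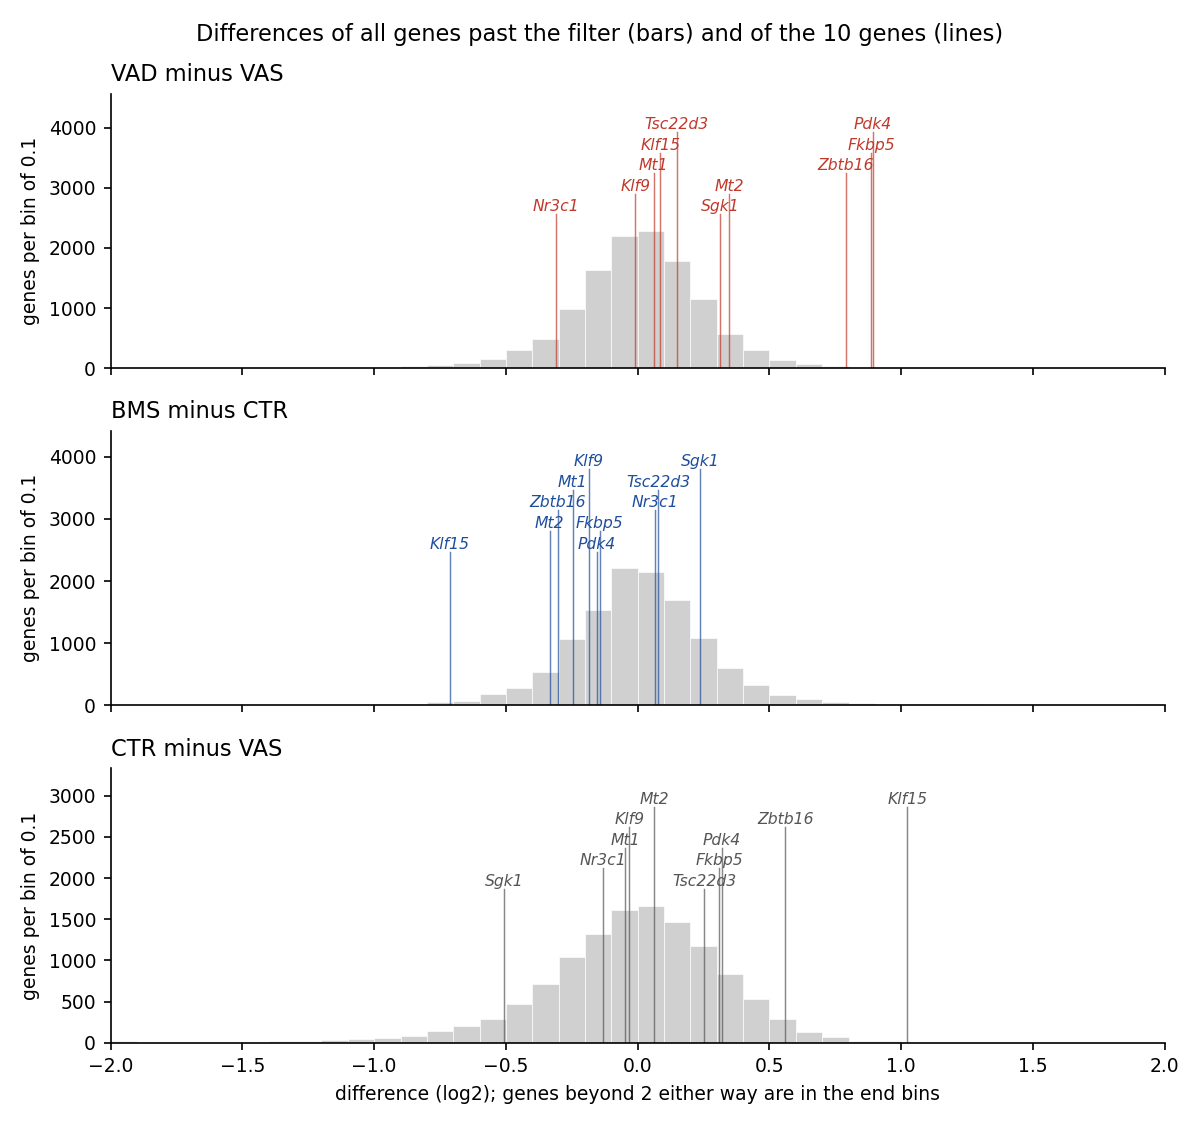
Number of genes past the filter per bin of 0.1 log2 units of difference (grey bars), with the 10 genes as labelled lines, for VAD minus VAS, BMS minus CTR and CTR minus VAS. Fkbp5, Pdk4 and Zbtb16 lie in the upper tail of VAD minus VAS, and most other lines lie within the body of the bars.

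A test was possible only with arrays of both experiments in 1 fit, limma's additive model of retinoid deprivation (VAD and BMS against VAS and CTR) and experiment (CTR and BMS against VAS and VAD). It leaves 1 residual degree of freedom, and that residual is the very difference between both experiments' effects. For retinoid deprivation, 0 of the 12395 genes and 0 of the 10 members passed an adjusted p of 0.05 (limma, Benjamini-Hochberg), and 476 genes, 3.84%, had an unadjusted p under 0.05, none of them a member. Sgk1 had a mean difference of 0.27 ± 0.13 (SE) with an unadjusted p of 0.0913 and an adjusted p of 1 in limma. Fkbp5 had 0.37 ± 0.27 (SE), the mean of differences of opposite sign. Over the settings run, which include leaving out each array, the Sgk1 value ran from -0.02 to 0.57 and the Fkbp5 value from 0.01 to 0.73.

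For experiment, 0 genes passed the adjusted threshold in limma and 1351, 10.9%, had an unadjusted p under 0.05, among them Sgk1 and Klf15. Sgk1 was lower on the antagonist arrays by -0.55 ± 0.13 (SE), with an unadjusted p of 0.00915 and an adjusted p of 0.308 in limma. Klf15 was higher there by 0.62 ± 0.22 (SE), with an unadjusted p of 0.0390 and an adjusted p of 0.434 in limma. The Klf15 value ran from 0.27 to 0.98 over the settings and that of Sgk1 from -0.70 to -0.39. Neither passed the adjusted threshold, and with so few arrays a gene that misses it is not shown to be unchanged.

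Among the 11448 genes past the filter that have established names, Pdk4 had the profile nearest to that of Fkbp5 over the 4 arrays, each profile centred on its own mean. The Euclidean distance was 0.010 log2 units. Next came Igha, an immunoglobulin heavy chain constant gene, at 0.0786, Lrrc32, a cell surface protein that holds latent TGF-beta, at 0.111, Ifna4, an interferon alpha gene, at 0.136, and Htr1b, a serotonin receptor, at 0.145. Igha passed the filter through VAD alone, with 6.33 there, 5.34 in VAS, 5.71 in CTR and 5.55 in BMS. Zbtb16 ranked 21 and Mt2 185 by the same distance, whereas Tsc22d3 ranked 4809 and Klf15 10867. Each profile rests on 4 points, so a small distance is a description only.

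RefSeq promoter windows of build GRCm38.p6, from 250 bases before to 50 after a start site, matched 8 of the 10 members. The windows with a receptor element, with several metal or E-box matches, and that of Fkbp5 are shown so that letters and levels can be set side by side. The motifs searched on both strands were the receptor's palindromic element (GNACA and TGTNC with 3 bases between them), its single arm TGTTCT, which can lie within the palindrome, the metal response element core TGCACNC or TGCGCNC, and the E-box CACGTG bound by clock proteins. Capitals mark every match. The palindrome occurred in 0.475% of all 32851 windows, TGTTCT in 19.0%, either metal response core in 25.7% and CACGTG in 7.15%.
Sgk1, the fifth of its 6 windows, chr10:21993640-21993939, plus strand: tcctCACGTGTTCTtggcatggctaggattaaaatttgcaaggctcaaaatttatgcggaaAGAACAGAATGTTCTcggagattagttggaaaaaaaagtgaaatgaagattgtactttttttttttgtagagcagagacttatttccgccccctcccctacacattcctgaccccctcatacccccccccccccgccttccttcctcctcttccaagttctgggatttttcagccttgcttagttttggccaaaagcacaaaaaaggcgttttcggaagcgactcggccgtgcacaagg
Mt1, chr8:94178839-94179138, plus strand: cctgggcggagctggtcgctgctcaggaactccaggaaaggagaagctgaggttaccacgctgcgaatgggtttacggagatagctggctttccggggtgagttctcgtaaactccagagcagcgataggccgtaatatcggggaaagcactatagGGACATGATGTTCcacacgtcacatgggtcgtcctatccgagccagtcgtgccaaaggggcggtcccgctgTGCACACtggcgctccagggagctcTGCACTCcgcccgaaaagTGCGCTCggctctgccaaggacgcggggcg
Mt2, chr8:94172368-94172667, plus strand: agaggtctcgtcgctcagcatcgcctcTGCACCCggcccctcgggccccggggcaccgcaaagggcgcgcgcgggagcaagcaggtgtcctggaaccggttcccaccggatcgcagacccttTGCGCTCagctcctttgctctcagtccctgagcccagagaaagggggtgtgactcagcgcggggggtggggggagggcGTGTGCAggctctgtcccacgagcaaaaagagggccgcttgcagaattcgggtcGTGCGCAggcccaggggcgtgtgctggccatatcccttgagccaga
Fkbp5, chr17:28486100-28486399, minus strand: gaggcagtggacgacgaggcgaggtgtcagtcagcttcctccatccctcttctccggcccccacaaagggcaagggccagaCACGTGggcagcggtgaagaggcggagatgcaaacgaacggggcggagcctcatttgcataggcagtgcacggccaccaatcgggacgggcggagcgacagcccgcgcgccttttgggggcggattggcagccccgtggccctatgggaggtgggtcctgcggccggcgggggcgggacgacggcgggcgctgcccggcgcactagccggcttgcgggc
Klf15, chr6:90462326-90462625, plus strand: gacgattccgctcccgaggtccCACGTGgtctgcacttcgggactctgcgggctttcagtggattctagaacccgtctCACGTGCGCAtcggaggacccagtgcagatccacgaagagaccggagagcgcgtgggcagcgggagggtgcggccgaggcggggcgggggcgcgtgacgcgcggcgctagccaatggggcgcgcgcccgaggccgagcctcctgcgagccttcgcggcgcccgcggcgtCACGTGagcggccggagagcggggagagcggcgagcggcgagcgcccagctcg

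The Sgk1 window held the palindrome as GAACAGAATGTTC, beginning at base -188 from the start site, and its outer letters complete a TGTTCT match on each strand. It also held CACGTG and TGTTCT overlapping at its upstream end. Of the other Sgk1 windows, 2 held TGTTCT and 1 a metal response core, and 1 of the 3 windows of Tsc22d3 held TGTTCT. Mt1 held GGACATGATGTTC at base -94 and 3 metal response cores, and Mt2 held 4 metal response cores and no match to the palindrome. Klf15 held CACGTG at 3 places, the middle one overlapping a metal response core, and Fkbp5 held CACGTG at 1 place. The windows of Pdk4 and Klf9 held no match to any of these motifs. Fkbp5 and Pdk4, which had near profiles, thus shared no match in these windows, while both neighbours Mt1 and Mt2 held metal response cores. A match is a description of letters and not of binding, and the palindromes of Sgk1 and Mt1 stood in windows of genes that were under 1.5-fold apart within both experiments.

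Other genes known to be induced through the receptor gave a mixed picture. Of 26 listed, 25 passed the filter, and 3 of those were called higher and 0 lower in VAD than in VAS, with a median of 0.06. Over all genes, 1.45% were called higher and 2.11% lower. Angptl4, a secreted inhibitor of lipoprotein lipase, had 9.70 in VAD, against 8.89 in VAS. Map3k6, a stress kinase gene, had 7.35 in VAD, against 6.66 in VAS. Both kept the pattern of Zbtb16, with CTR minus VAS values of 0.50 each and BMS minus CTR values of -0.39 and -0.20. Fam107a, an actin-associated protein gene, was the third, with 7.09 in VAD, against 6.44 in VAS. It did not keep that pattern, with 0.35 in BMS minus CTR and -0.57 in CTR minus VAS.

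In BMS against CTR, 3.11% of all genes were called higher and 1.89% lower. The same receptor-induced list had 1 gene called higher there, 0 lower and a median of -0.07. That gene was Anxa1, which encodes annexin A1, a phospholipid-binding protein of steroid anti-inflammatory action, with 10.58 in BMS, against 9.95 in CTR. It also stood 0.38 higher in VAD than in VAS. In CTR against VAS 3 were called lower, where 5.87% of all genes were. These were Il1r2, the interleukin 1 decoy receptor, by -1.90, Lcn2, a neutrophil granule and epithelial protein, by -1.53, and Anxa1 by -0.90. Per1, a clock gene with a receptor element, and Dusp1, a phosphatase that shuts off MAP kinases, differed by -0.12 and 0.01 in VAD minus VAS and by 0.29 and -0.06 in CTR minus VAS.

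**Figure D4:**
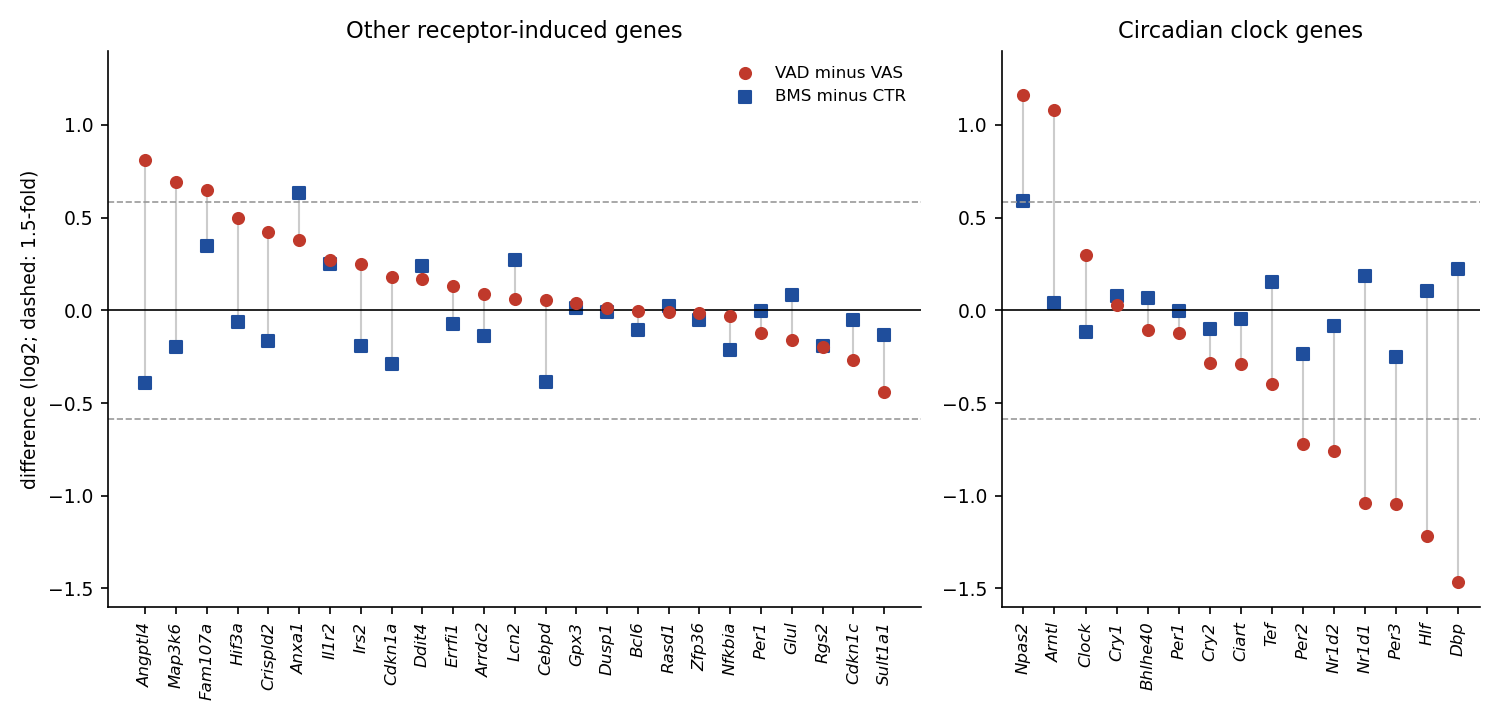
Log2 differences of the 25 other receptor-induced genes and of the 15 circadian clock genes past the filter, in VAD minus VAS (circles) and BMS minus CTR (squares), ordered by VAD minus VAS, with dashed lines at 1.5-fold. Angptl4, Map3k6 and Fam107a lie above the line in VAD minus VAS, and 6 clock genes lie below it.

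Inflammatory genes that the receptor is known to repress differed little within the experiments and more between the controls. Of 15 listed, 12 passed the filter. In VAD against VAS 1 was called lower, where 2.11% of all genes were, with a list median of 0.01. It was Cxcl10, an interferon-induced chemokine, with -0.84. In BMS against CTR 0 were called in either direction, with a median of 0.07, where 3.11% of all genes were called higher and 1.89% lower. In CTR against VAS 7 of 12 were called lower, with a median of -0.66, where 5.87% of all genes were. These were Csf2, which encodes the growth factor GM-CSF, with -2.38, Il1b with -1.84, Ccl7 and Ccl11 with -1.22 each, Vcam1 with -1.02, Ccl2 with -0.71 and Cxcl10 with -0.62. Of 8 lymphocyte and granulocyte markers, 3 passed the filter. The T cell gene Cd3e had 9.69 in VAD, against 8.99 in VAS, and 8.93 in BMS, against 9.35 in CTR, so it was called higher in VAD (0.71) and had the signs of Fkbp5, Pdk4 and Zbtb16. Its partner gene Cd3d lay below the filter on every array and had the opposite signs, with -0.65 in VAD minus VAS and 0.28 in BMS minus CTR. The part of T cells in the Fkbp5, Pdk4 and Zbtb16 values was not tested. Both granulocyte genes were lower in CTR, with S100a9 at 6.47 in CTR, against 9.21 in VAS, and S100a8 at 6.08 in CTR, against 8.08 in VAS. Some markers of other cells were lower in CTR too, and others were not. Of 10 fibroblast markers 4 were called lower, among them Pi16 with -2.14 and Clec3b with -1.49, while 3 stood above 0. Of 5 alveolar epithelial markers 3 were called lower, with Sftpc at -3.54, while Abca3 stood at 0.01. All 7 pericyte and vascular smooth muscle markers and both airway epithelial markers past the filter stood higher in CTR, as did Cd3e by 0.36. The 3 macrophage markers past the filter had a median of -0.42. The part of these cells in the differences of Csf2, Il1b, Il1r2 and Lcn2 was not tested.

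The receptor's own machinery moved little. Of 10 chaperones and cochaperones, 8 passed the filter, and 0 were called in VAD against VAS, in BMS against CTR or in CTR against VAS. Over all genes, the shares called higher and lower were 1.45% and 2.11%, 3.11% and 1.89%, and 2.66% and 5.87%, in that order. Hspa8, the constitutive Hsp70, differed by -0.40 in VAD minus VAS and 0.07 in BMS minus CTR, and Ppid, a cyclophilin of the receptor complex, by -0.09 and -0.53. All 9 measured coactivators and corepressors passed it and 0 were called, with Med1, a Mediator subunit, at 0.25 and 0.03 and Carm1, an arginine methyltransferase, at 0.16 and 0.05.

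Genes that set the supply of steroid to the receptor were 6 of 7 past the filter. Hsd11b1, whose enzyme regenerates active corticosterone within cells, stood higher in both experiments without reaching 1.5-fold, with 9.71 in VAD, against 9.49 in VAS, and 9.44 in BMS, against 8.93 in CTR. H6pd, which supplies its cofactor, had 8.35 in VAD, against 7.78 in VAS, a difference of 0.57. Abcb1b, a drug and steroid efflux pump, was the gene called in this group, with 7.07 in BMS, against 7.81 in CTR. Of all genes, 1.89% were called lower there. The mineralocorticoid receptor gene Nr3c2, which binds the same hormone, had 7.15 in VAD, against 7.11 in VAS, and 7.18 in BMS, against 7.45 in CTR.

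Pdk4 and Angptl4 are also targets of fasting signals. Of 8 fasting, PPAR and FoxO genes past the filter, 2 were called higher in VAD than in VAS, where 1.45% of all genes were. These were Cpt1a, which admits fatty acids to mitochondria, and Angptl4, which the receptor-induced list holds too. The median of the 8 was 0.33. Cpt1a had 10.49 in VAD, against 9.88 in VAS, and 10.31 in BMS, against 10.44 in CTR, so it kept the array order of Fkbp5. Fbxo32, a muscle atrophy gene that FoxO factors and glucocorticoids induce in skeletal muscle, went the other way, with 7.37 in VAD, against 7.87 in VAS.

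Of the 15 clock genes past the filter, 2 were called higher and 6 lower in VAD than in VAS. Over all genes these shares were 1.45% and 2.11%. Npas2 and Arntl, of the activating arm, differed by 1.16 and 1.08. Dbp differed by -1.47, Hlf by -1.22, Per3 by -1.04, Nr1d1 by -1.04, Nr1d2 by -0.76 and Per2 by -0.72. In BMS against CTR 1 was called, Npas2, with 0.59, where 3.11% of all genes were called higher. The part of fasting signals and of clock phase in the Fkbp5, Pdk4 and Zbtb16 differences was not tested.

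Metal response genes, like Mt1 and Mt2, were under 1.5-fold apart within both experiments. Of 8 listed, 6 passed the filter, with a median of 0.06 in VAD minus VAS, where 5 of 6 stood above 0, and of 0.06 in BMS minus CTR, where 4 of 6 did. Mtf1, the metal-sensing activator of both metallothionein genes, had 8.63 in VAD, against 8.46 in VAS, and 8.80 in BMS, against 8.44 in CTR. Slc30a1, a zinc exporter that Mtf1 controls, differed by 0.04 in VAD minus VAS and 0.08 in BMS minus CTR. Slc39a14, a zinc and iron importer, had 9.02 in VAD, against 8.49 in VAS, and 8.66 in BMS, against 8.81 in CTR, with the signs of Mt2.

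Markers of other cells also moved between arrays. In BMS against CTR all 10 fibroblast markers stood higher, with a median of 0.79 and a summed linear level of 18107.5 in BMS, against 12787 in CTR. That sum was 14620 in VAD, against 15412 in VAS, so CTR was the lowest array, and CTR minus VAS had a fibroblast median of -0.38. In BMS against CTR all 10 airway smooth muscle markers stood lower, with a median of -0.16. In VAD against VAS 9 of 10 airway smooth muscle markers stood higher, with a median of 0.19. The alveolar epithelial markers had a summed linear level of 1244 in VAD, against 2735 in VAS, and Sftpc had the highest level among them. Of the 5 past the filter, 3 were called lower, where 2.11% of all genes were. These were Sftpc with -1.58, Sftpa1 with -1.08 and Sftpb with -0.59, while Abca3 stood at 0.05. In BMS against CTR Sftpc was called higher, with 1.82, where 3.11% of all genes were. The 7 pericyte and vascular smooth muscle markers had a median of 0.23 in VAD minus VAS, -0.26 in BMS minus CTR and 0.36 in CTR minus VAS. Cspg4 itself had 8.22 in VAD, against 7.71 in VAS, and was not called. Of the 7, 1 was called in VAD against VAS, Higd1b, which was lower with -0.71, where 2.11% of all genes were called lower. In CTR against VAS 2 were called higher, Pdgfrb with 0.93 and Notch3 with 0.71, where 2.66% of all genes were. Of the other marker lists, 7 of 8 endothelial, 3 of 7 macrophage, 2 of 7 airway epithelial and 4 of 7 cardiac genes passed the filter. The endothelial gene Cldn5 was called, with 0.95 in VAD minus VAS and 0.64 in CTR minus VAS. Tek, also endothelial, was called with -0.59 in VAD minus VAS, 1.42 in BMS minus CTR and -0.73 in CTR minus VAS. Cldn5 and Tek thus went opposite ways, and the endothelial medians were 0.01 in VAD minus VAS and -0.05 in CTR minus VAS. The cardiac gene Tnnt2 was called with -0.77 in VAD minus VAS and -0.91 in CTR minus VAS. Over all genes, 1.45% were called higher and 2.11% lower in VAD than in VAS. In BMS against CTR 3.11% were called higher, and in CTR against VAS 2.66% were called higher and 5.87% lower. The part of these cells in the values of Klf15, Zbtb16, Mt1 and Mt2 was not tested. Immediate early genes, which cell isolation can induce as it can Sgk1, had a median of 0.03 in VAD minus VAS and 0.00 in BMS minus CTR, with members on both sides. The heat shock gene Hspa1b was the gene of these 12 called in both experiments, with -0.75 and 0.59, and Hspa1a had -0.33 and -0.06. Of all genes, 2.11% were called lower in VAD than in VAS and 3.11% higher in BMS than in CTR. The part of cell isolation in the Sgk1 values was not tested.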

How the data were processed

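The values are the authors' deposited log2 values, made by RMA, for which the submitters' processing notes name affy (version 1.36.1) and R (version 2.15.1). RMA gives arrays nearly equal distributions and would hide a general shift, and medians of all 25206 probe sets ran from 5.97 to 6.02. Background per probe set is not known. Precision is limited by having 4 arrays. Probe sets are Entrez gene numbers, of which 23185 had 1 symbol in GEO's platform annotation, none had several and 2021 are unnamed here. The filter asked for at least 1 array at 6.05 or more, which is the median over named probe sets and arrays. Between 68 and 89 probe sets had exactly equal deposited values on a pair of arrays, compared at every deposited digit.

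Differences of log2 values were counted at 1.5-fold. The fit was limma 3.58.1 (lmFit, eBayes) in R 4.3.3 over all genes past the filter. It was tested on simulated data with additive effects only. That test does not cover effects that differ between the experiments, as those of several members did. Python 3.11.15, numpy 2.4.6, pandas 2.3.3 and matplotlib 3.10.9 were used. The members, the 22 other lists and the threshold were chosen with earlier results of these data known. Besides the members, genes of a list are named where 1.5-fold apart in a comparison, or among the 2 with the largest mean difference of both experiments, and the 5 genes nearest to Fkbp5 in profile. Nr3c2, Per1, Dusp1, Slc30a1, Klf7, Klf11, Klf13, Klf14, Klf16 and some marker genes were named after their values were seen. Some listed genes are not reported here. Alternatives were other filters, a 2-fold threshold, quantile normalization again, cyclic loess, the other control, the mean of both controls, other limma settings and leaving out each array.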

Additional observations from a re-analysis of the deposited data

Results flagged for a closer look

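For 7 of the 10 genes the diet and the antagonist arrays differed from their controls in opposite directions, and with 1 array per group the difference between the experiments was not tested. The log2 difference of VAD minus VAS exceeded that of BMS minus CTR by 1.09 for Zbtb16 (0.79 and -0.30), by 1.05 for Pdk4 (0.89 and -0.16) and by 1.03 for Fkbp5 (0.89 and -0.14). For Klf15 the gap was 0.80 (0.09 and -0.71), for Mt2 0.68 (0.35 and -0.33) and for Mt1 0.31 (0.06 and -0.25). Nr3c1 went the opposite way, with a gap of -0.37 (-0.31 and 0.06). Of all genes past the filter, 25.5% stood higher in VAD than in VAS and lower in BMS than in CTR, and another 25.5% the reverse.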

How the results depend on the processing

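Fkbp5, Pdk4 and Zbtb16 kept their calls in VAD against VAS under quantile normalization again and cyclic loess, and the filter at the 75th percentile (7.67) drops Fkbp5, Tsc22d3 and Klf15. The 3 higher calls became 0 at 2-fold, 2 with the stricter filter and 2 against the mean of both controls, where Zbtb16 stood at 0.51. Against CTR none of these 3 genes was called, and 1 other member was higher (Sgk1) and 1 lower (Klf15). The 1 lower call in BMS against CTR became 0 at 2-fold, against VAS, against the mean of both controls and with the stricter filter, which drops Klf15. Klf15 itself turned to 0.31 against VAS. The 1 higher call in CTR against VAS became 0 with the stricter filter. Over all genes, higher calls in VAD against VAS ran from 29 (at 2-fold) to 532 (against CTR), with 180 in the report, and lower calls from 52 (at 2-fold) to 497 (no filter), with 262. In BMS against CTR higher calls ran from 133 (at 2-fold) to 505 (no filter), with 386, and lower calls from 35 (at 2-fold) to 671 (against VAS), with 234. In CTR against VAS they ran from 40 to 500, with 330, and from 212 to 1004, with 728, at 2-fold and with no filter. The limma count for retinoid deprivation stayed at 0 in every setting run. For experiment, 0 became 10 without the block, 10 with the stricter filter, 1 with trend and robust fitting and 15 after quantile normalization again, and leaving out 1 array gave 0 to 53. Those fits were made without the block as well, since 3 arrays leave it no residual degree of freedom, so both choices changed at once, and a lone array is assumed to vary like the others. The count was 53 without CTR, 41 without BMS and 0 without VAS or VAD. No member passed in any of these settings, and the lowest adjusted p of a member in limma was 0.0977, for Klf15 without BMS, in a range up to 0.553 over the settings. The main limma fit holds experiment as a block and so pairs VAD with VAS and BMS with CTR. Beyond it no paired analysis was possible, because each group has a single array. Except where a filter drops genes, the cause of these shifts was not tested.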

Other observations

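Among relatives of the members past the filter, none was called within either experiment. Over all genes, 1.45% were called higher and 2.11% lower in VAD than in VAS. In BMS against CTR the shares were 3.11% and 1.89%. At such shares, 0 calls among so few genes do not set the relatives apart from other genes. Of the other pyruvate dehydrogenase kinases, Pdk2 had 7.94 in VAD, against 8.20 in VAS, and Pdk3 had 8.65 in VAD, against 8.64 in VAS, and Pdk1 lay below the filter on every array. Of 15 other Kruppel-like factors, 13 passed the filter and 0 were called within either experiment. Klf2, a factor of quiescent endothelium and lymphocytes, came nearest, with 8.29 in VAD, against 7.77 in VAS, and 8.28 in BMS, against 7.80 in CTR, so it stood higher in both by 0.52 and 0.48. Klf5, a growth-related factor of smooth muscle and epithelium, had 6.70 in CTR, against 7.33 in VAS, a difference of -0.64. Klf14, with levels from 6.24 to 6.54 and so near the filter of 6.05, had the signs of Klf15. It had 0.11 in VAD minus VAS, -0.30 in BMS minus CTR and 0.28 in CTR minus VAS. These signs were not particular to Klf14. Klf7, Klf11, Klf13 and Klf16 had them too, and the other Kruppel-like factors of this list past the filter did not. Of the relatives of GILZ, Tsc22d2 differed by 0.32 and Tsc22d1 by -0.23 in VAD minus VAS. Sgk3 differed by -0.01 in VAD minus VAS and, with the signs of Sgk1, by 0.15 in BMS minus CTR and -0.24 in CTR minus VAS.

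Heme oxygenase, Hmox1, which oxidative stress and heme induce, had 7.34 in CTR, against 8.47 in VAS, a difference of -1.13, while both metallothioneins lay within 0.06 between these arrays. Hspa1b, an inducible Hsp70 gene of the immediate early list, had 10.08 in VAD, against 10.83 in VAS, and 11.15 in BMS, against 10.56 in CTR, which are differences of -0.75 and 0.59 with signs opposite to those of Fkbp5.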
